A study of Mus musculus with 8 samples.

Results

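The growth factor, chemokine and inhibin subunit genes that the somatic cells of the testis niche are known for were described in RNAseq of whole testes from 12-day-old (P12) mice. The genes were chosen by name: *Kitl*, *Gdnf*, *Fgf2*, *Cxcl12*, *Csf1*, *Bmp4* and the inhibin subunits *Inha*, *Inhba* and *Inhbb*, which are 9 of the 40840 genes listed. All 9 passed the filter on low counts, with between 396 and 31713 reads per gene and mouse. The comparison was between 4 wild type mice (*Tra2bPE* fl/+, no *Cre*) and 4 *Tra2b-cPEko* mice (fl/-;*Vasa-Cre*), lettered A to D in each genotype, all maintained on a C57BL/6J background. Both genotypes carried a floxed copy of the *Tra2b* poison exon, an exon that stops productive translation when it is spliced in. The second copy was intact in wild type mice and already deleted in *Tra2b-cPEko* mice, as the crosses pass on an allele deleted in the sperm of the father. *Vasa-Cre* acts in germ cells, so Sertoli, Leydig and myoid cells of *Tra2b-cPEko* testes still had a copy of the exon, but 1 copy fewer than wild type, and the effects of *Vasa-Cre* itself, of that missing copy and of deletion in germ cells cannot be told apart. The methods allow for small differences in exact age, and so in cell types, between mice.

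Spermatogenesis depends on signals from somatic cells. Sertoli cells, which enclose the germ cells, make GDNF, which keeps undifferentiated spermatogonia renewing through GFRA1 and RET, and KIT ligand, which differentiating spermatogonia need through the receptor KIT. FGF2 and CXCL12 also act on spermatogonia, and CSF1 keeps macrophages alive and can act on spermatogonia that carry its receptor. The inhibin alpha subunit joined to a beta subunit makes inhibin, which lowers pituitary FSH, while beta subunits joined to each other make activins, which act through SMAD2 and SMAD3. BMP4 belongs to the same superfamily and acts through SMAD1, SMAD5 and SMAD9.

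The 8 libraries held 36757386 to 59101569 reads on genes. Somatic cells were well represented, since none of the 14 Sertoli marker genes looked at was at 0 and their summed level was between 6419 and 6933 CPM (read counts scaled to library size with TMM factors) in wild type and between 6447 and 7168 CPM in *Tra2b-cPEko* testes. Much of each sum was *Clu*, with 3396 CPM in wild type A and 4049 CPM in *Tra2b-cPEko* A. Of the 14 genes, 5 had a log2 fold change above 0 in *Tra2b-cPEko* against wild type. *Tra2b* itself was between 156 and 176 CPM in wild type and between 190 and 209 CPM in *Tra2b-cPEko* testes, but gene counts do not show whether the poison exon was deleted. One library stood apart. *Tra2b-cPEko* mouse C held *Crisp1* at 107 CPM and *Spink8* at 103 CPM, genes of the epididymal epithelium, each below 1 CPM in the other 7 libraries, and 7 such markers summed to 286 CPM against at most 10.8 CPM elsewhere. Not all 7 were raised in mouse C, where *Cst8* was 8.17 CPM, within its range elsewhere, and *Lcn8* only 0.15 CPM. Log2 fold changes of *Csf1*, *Inhba*, *Csf1r*, *Il34*, *Fgfr2*, *Fstl3*, *Ccnd2* and *Lhcgr* are also given without *Tra2b-cPEko* mouse C. In bulk tissue, fewer cells of a type and less RNA per cell cannot be told apart.

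None of the 9 genes was called different between the genotypes by edgeR's quasi-likelihood test (adjusted p under 0.05 over the 19104 genes tested), in a comparison that called 0.157% of all genes. At an unadjusted p under 0.05, edgeR gave 2 of the 9, *Csf1* and *Fgf2*, where 15.3% of all genes were under that level. DESeq2 called 1 of the 9, *Csf1*, where it called 2.79% of all genes. The levels of the 4 wild type and the 4 *Tra2b-cPEko* mice did not overlap for 2 of the 9, *Csf1* (higher in *Tra2b-cPEko*) and *Inhba* (lower), a pattern seen in 8.54% of all genes tested. The log2 fold change was above 0 for 5 of the genes and below 0 for 4, with a median of 0.07 against a median of -0.0011 over all genes tested. All values by mouse are drawn in the panels for the 9 genes, and the fold changes with their intervals in the plot of differences.

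**Figure D1:**
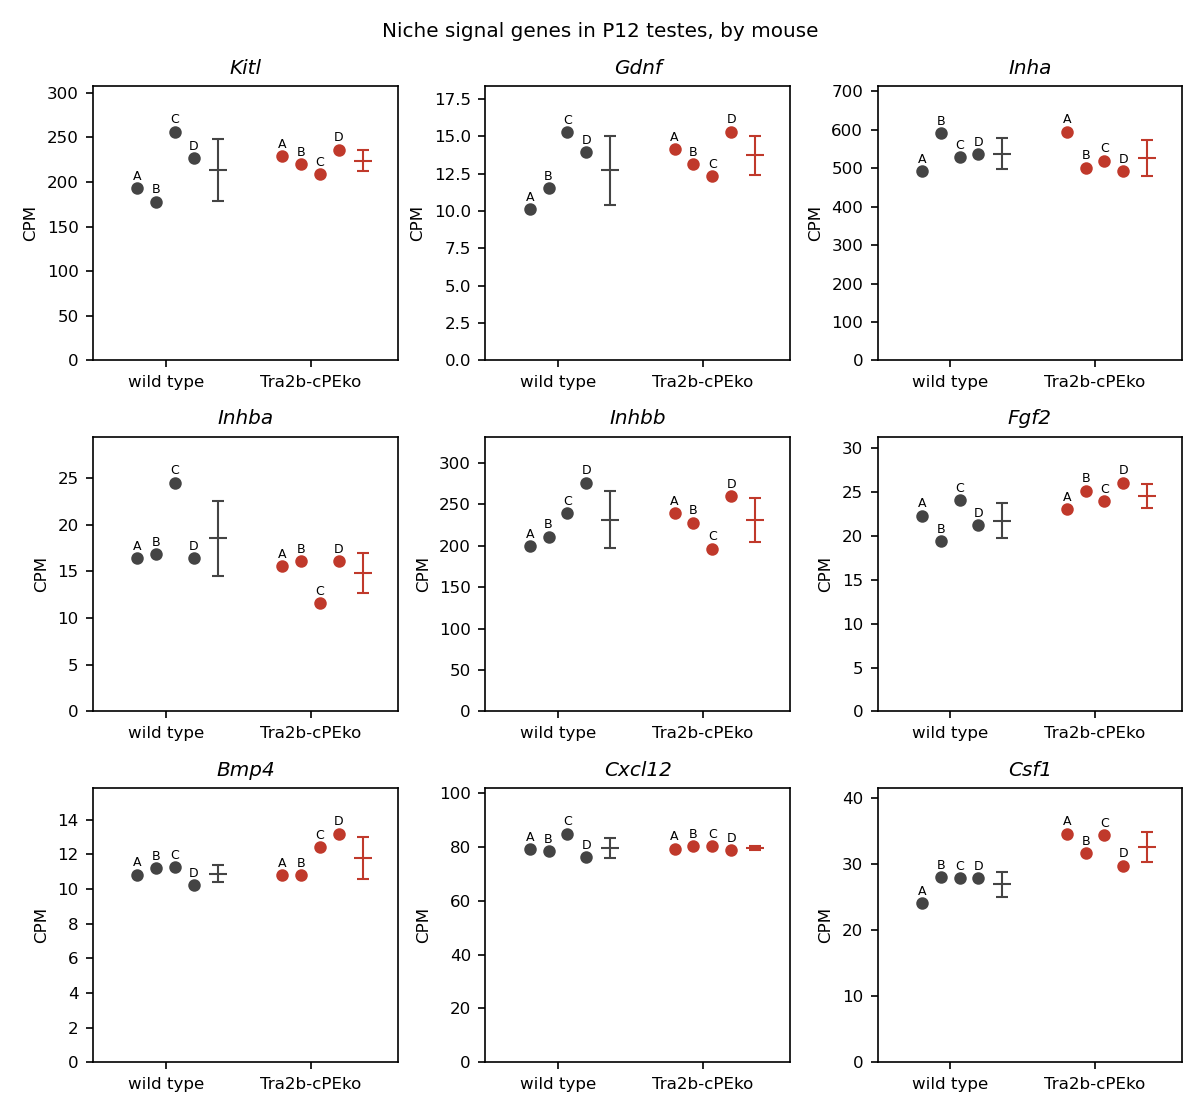
Level of each of the 9 genes in CPM (linear axis from 0), with 1 point per mouse lettered A to D in grey for wild type and red for *Tra2b-cPEko*, and beside them the mean with its SD (n = 4). The points of the genotypes are apart only for *Csf1* and *Inhba*, and *Inhba* has a high wild type mouse C (24.5 CPM) and a low *Tra2b-cPEko* mouse C (11.6 CPM).

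**Figure D2:**
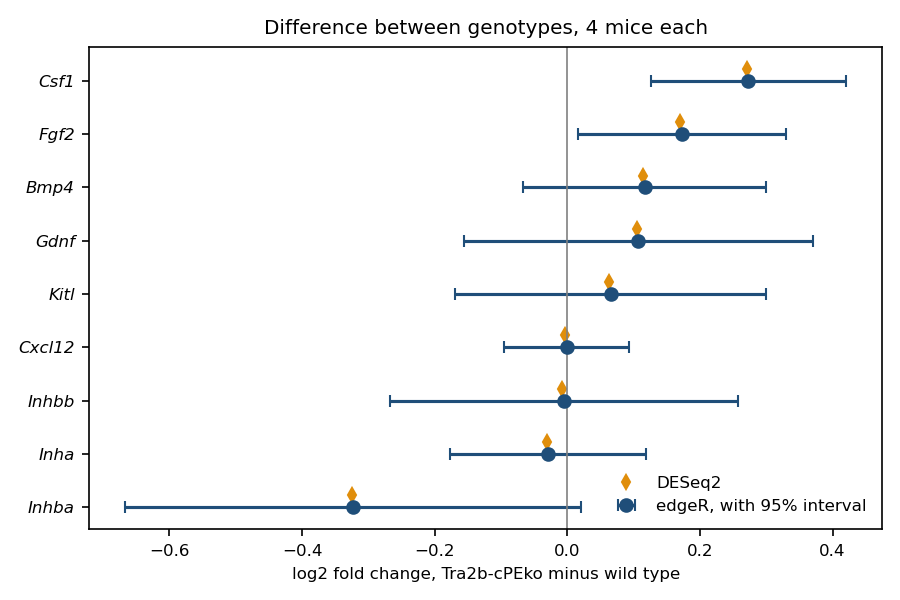
Log2 fold change of the 9 genes, *Tra2b-cPEko* minus wild type, from edgeR (circles, bars for the 95% confidence interval) and from DESeq2 (diamonds). The interval lies above 0 for *Csf1* (0.13 to 0.42) and *Fgf2* (0.02 to 0.33) and spans 0 for the other 7 genes.

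The clearest difference was in *Csf1*, which encodes macrophage colony stimulating factor (GRCm39 chromosome 3, 107648364 to 107667806, minus strand). Wild type mice A to D had 24.1, 28.0, 27.9 and 27.9 CPM, and *Tra2b-cPEko* mice A to D had 34.6, 31.7, 34.3 and 29.8 CPM. Every *Tra2b-cPEko* testis was above every wild type testis, although the gap between the nearest mice, wild type B and *Tra2b-cPEko* D, was small. The means were 27.0 ± 1.89 CPM in wild type and 32.6 ± 2.30 CPM in *Tra2b-cPEko* testes (SD, n = 4), 20.8% higher with a 95% interval of 9.12% to 33.8%. That is a log2 fold change of 0.27 (SE 0.07), and the adjusted p was 0.114 with edgeR and 0.0223 with DESeq2. The exact permutation test (two-sided, on log2 CPM) gave p = 0.0286, the smallest that 70 arrangements of 8 mice allow. Without *Tra2b-cPEko* mouse C the log2 fold change was 0.25 (edgeR adjusted p = 0.307), and the groups still did not overlap. The whole span of *Csf1*, introns included, overlaps the antisense gene *Gm40121*, and no source used here says whether the counting used the strand.

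CSF1 shares its receptor, encoded by *Csf1r*, with a second ligand encoded by *Il34*, and both genes had an edgeR log2 fold change above 0. *Csf1r* had 23.7, 21.8, 27.9 and 24.3 CPM in wild type mice A to D and 29.3, 29.7, 33.3 and 27.6 CPM in *Tra2b-cPEko* mice A to D. Only wild type C and *Tra2b-cPEko* D crossed over. For *Csf1r* the log2 fold change was 0.29 (SE 0.08), with an edgeR adjusted p of 0.136 and a DESeq2 adjusted p of 0.0400. Without *Tra2b-cPEko* C, where *Csf1r* was highest, it was 0.24 with edgeR, and no DESeq2 fit was made without that mouse. *Il34* was a low gene, at 0.928, 0.946, 0.947 and 0.779 CPM in wild type and 1.20, 1.25, 1.45 and 1.31 CPM in *Tra2b-cPEko* mice. Its groups did not overlap, and its log2 fold change of 0.54 (SE 0.15) had an adjusted p of 0.144 with edgeR and 0.181 with DESeq2. Without *Tra2b-cPEko* C, also its highest mouse, the log2 fold change of *Il34* was 0.48 with edgeR. *Csf1r* is also a macrophage marker, and all 10 genes of a macrophage list that includes it had a log2 fold change above 0, with a median of 0.26. Of these, 6 were under an unadjusted edgeR p of 0.05 (15.3% over all genes), edgeR called none (0.157%) and DESeq2 called 2 (2.79%), and none was at 0 in every library. The macrophage list summed to between 148 and 184 CPM in wild type and between 184 and 220 CPM in *Tra2b-cPEko* testes. Without *Tra2b-cPEko* C the latter range was 184 to 202 CPM. The part of macrophage number in the *Csf1* difference was not tested. Measured against the mean log2 CPM of the Sertoli list in the same library, *Csf1* was again higher in every *Tra2b-cPEko* mouse, by 0.30 on the log2 scale.

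**Figure D3:**
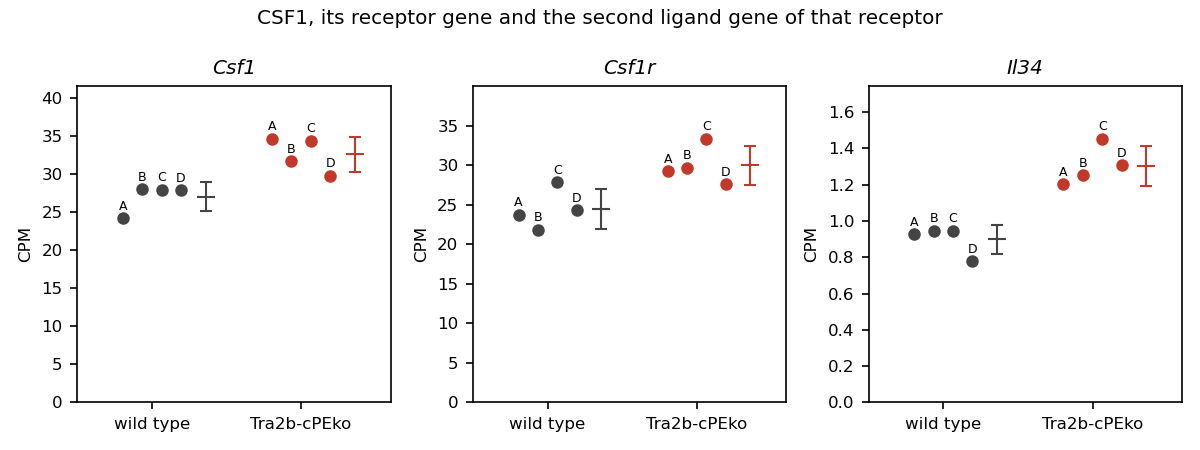
Levels of *Csf1*, of its receptor gene *Csf1r* and of *Il34*, in CPM from 0, with 1 lettered point per mouse (grey wild type, red *Tra2b-cPEko*) and the mean with its SD (n = 4). The genotypes are apart for *Csf1* and *Il34*, and for *Csf1r* wild type C at 27.9 CPM lies just above *Tra2b-cPEko* D at 27.6 CPM.

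*Fgf2* (chromosome 3, 37402473 to 37464257, plus strand), a fibroblast growth factor that supports spermatogonial cultures, had a smaller difference. Its levels were 22.3, 19.3, 24.1 and 21.2 CPM in wild type mice A to D and 23.0, 25.1, 24.0 and 26.0 CPM in *Tra2b-cPEko* mice A to D. Wild type C lay among the *Tra2b-cPEko* mice, so the groups overlapped. The log2 fold change was 0.17 (SE 0.07, 95% interval 0.02 to 0.33), with an edgeR p of 0.0332, an adjusted p of 0.285, and an exact permutation p of 0.0857. The 3′ end of *Fgf2* overlaps that of the opposite-strand gene *Nudt6*, and the lncRNA gene *Gm43439* overlaps it on the same strand, so some of its reads may belong to these genes. Of its receptors, *Fgfr1* was the highest, with 82.3 ± 6.23 CPM in wild type and 89.9 ± 3.89 CPM in *Tra2b-cPEko* testes (SD, n = 4), a log2 fold change of 0.13 (edgeR adjusted p = 0.319). *Fgfr4* had a log2 fold change of 0.49 (edgeR adjusted p = 0.286) at 3.25 CPM on average, and *Fgfr3* one of -0.24 (edgeR adjusted p = 0.222). *Fgfr2* had the largest fold change of the receptors, 0.51 (edgeR adjusted p = 0.334), which was 0.28 without *Tra2b-cPEko* C, where it was 41.5 CPM against at most 27.6 CPM in the other mice. The receptor genes had differences of either sign, and edgeR called none of the 10 other genes of the FGF list (0.157% over all genes).

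*Inhba*, the subunit that makes activin A as a dimer, was the member with the lowest fold change (chromosome 13, 16186373 to 16206206, plus strand). Wild type mice A to D had 16.4, 16.8, 24.5 and 16.4 CPM, and *Tra2b-cPEko* mice A to D had 15.5, 16.1, 11.6 and 16.1 CPM. The 3 lower wild type mice and the 3 higher *Tra2b-cPEko* mice lay between 15.5 and 16.8 CPM, and mouse C of each genotype lay apart on opposite sides. The means were 18.5 ± 3.99 CPM and 14.8 ± 2.17 CPM (SD, n = 4), with a log2 fold change of -0.32 (SE 0.15, 95% interval -0.67 to 0.02). The edgeR p was 0.0626 (adjusted 0.352), DESeq2 gave an adjusted p of 0.235, and the exact permutation test gave p = 0.0286. Without wild type mouse C the log2 fold change was -0.16, and without *Tra2b-cPEko* mouse C, the library with epididymal genes, it was -0.22 (edgeR adjusted p = 0.599). The groups overlapped once *Inhba* was measured against the Sertoli list. The gene overlaps the antisense genes *4933412O06Rik* and *Gm48444*.

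*Inha*, the alpha subunit, which Sertoli cells make under FSH, was the highest of the 9 genes per length (chromosome 1, 75482196 to 75489223, plus strand). It had 493, 592, 528 and 537 CPM in wild type and 595, 501, 520 and 492 CPM in *Tra2b-cPEko* mice, wholly overlapping. Between genotypes its log2 fold change was -0.03 with a 95% interval of -0.18 to 0.12 (edgeR adjusted p = 0.878), which bounds the difference to between -11.5% and 8.60%. *Inhbb*, the beta subunit of inhibin B, the main inhibin of the male (chromosome 1, 119343193 to 119350021, minus strand), had 200, 211, 240 and 276 CPM in wild type and 239, 228, 197 and 260 CPM in *Tra2b-cPEko* mice. Its log2 fold change was -0.01 with a wider interval, -0.27 to 0.26 (edgeR adjusted p = 0.989). *Inha* overlaps the opposite-strand genes *Obsl1* and *Gm70639*, and *Inhbb* overlaps *Gm41935*.

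Subunits compete for partners, so their ratios within a library were compared too, which needs no normalization. The log2 ratio of *Inhba* to *Inhbb* reads was -3.61, -3.65, -3.29 and -4.07 in wild type mice A to D and -3.94, -3.82, -4.08 and -4.01 in *Tra2b-cPEko* mice A to D. Wild type A, B and C were above all *Tra2b-cPEko* mice, and wild type D lay among them. The mean difference of this log2 ratio was -0.31 (exact permutation p = 0.114, adjusted over 4 ratios 0.457). For *Inhba* to *Inha* the difference was -0.28 (exact p = 0.229, adjusted 0.457), and for *Inhbb* to *Inha* it was 0.03 (exact p = 0.857, adjusted 0.857). Without wild type C, the differences for both ratios of *Inhba* were smaller, -0.19 to *Inhbb* and -0.13 to *Inha*, and without *Tra2b-cPEko* C they were -0.27 and -0.17. With 4 mice per genotype, these tests did not show a difference in the ratio of either beta subunit to the alpha subunit, nor that there was none.

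**Figure D4:**
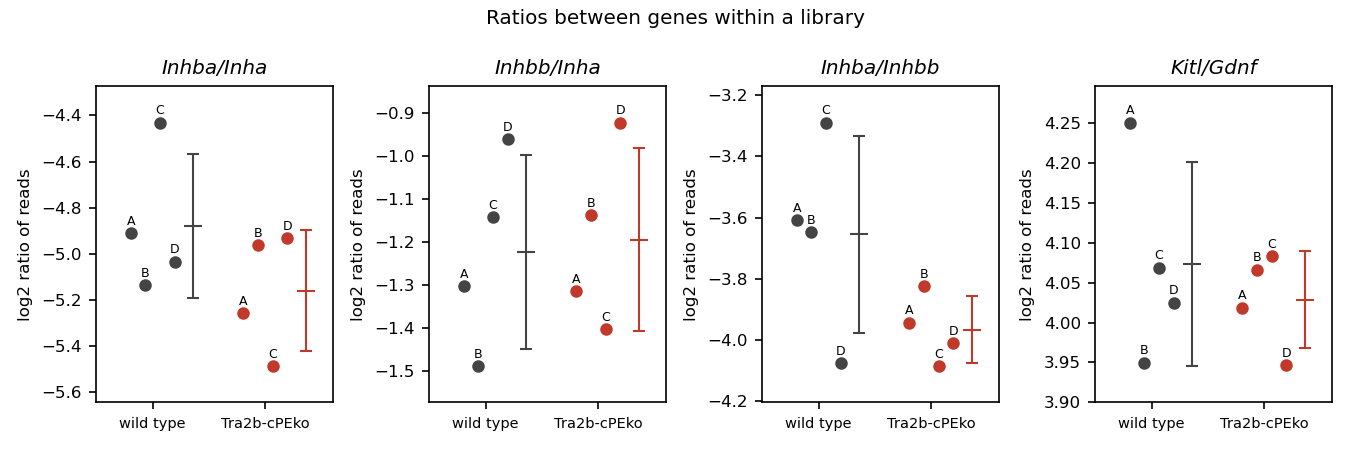
Log2 ratio of the reads of 2 genes in the same library, 1 lettered point per mouse (grey wild type, red *Tra2b-cPEko*), with the mean and SD (n = 4); the vertical axes do not start at 0 and differ between panels. The genotypes overlap in all 4 panels, and wild type C is the highest point for both ratios with *Inhba* on top.

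The receptors, binding proteins and SMAD proteins of activin and inhibin numbered 11. *Acvr1b*, the type I activin receptor with the highest level of the receptors, had 61.9 ± 2.56 CPM in wild type and 58.8 ± 3.09 CPM in *Tra2b-cPEko* testes (SD, n = 4; log2 fold change -0.07, edgeR adjusted p = 0.513). *Fstl3*, an activin-binding follistatin-like protein, had a log2 fold change of -0.17 (edgeR adjusted p = 0.319), with 63.9 ± 4.37 and 56.7 ± 6.57 CPM (SD, n = 4). Without *Tra2b-cPEko* C the log2 fold change of *Fstl3* was -0.13 with edgeR. None of the 11 was called by edgeR (0.157% over all genes), and the median of their log2 fold changes was -0.06.

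*Kitl* (chromosome 10, 99851492 to 99936278, plus strand) and *Gdnf* (chromosome 15, 7840327 to 7867060, plus strand) were not distinguishable between genotypes, but varied together across mice. *Kitl* had 193, 178, 256 and 227 CPM in wild type mice A to D and 229, 220, 209 and 236 CPM in *Tra2b-cPEko* mice A to D. *Gdnf* had 10.1, 11.5, 15.3 and 13.9 CPM in wild type and 14.1, 13.1, 12.3 and 15.3 CPM in *Tra2b-cPEko* mice. For both genes wild type mice A and B were the lowest of all 8, wild type C and D were well above them, and the *Tra2b-cPEko* mice lay between the wild type extremes or at the upper one. The wild type coefficient of variation was 16.4% for *Kitl* and 18.2% for *Gdnf*, against 5.23% and 9.36% in *Tra2b-cPEko* mice. The wild type median was 6.11% over the 10850 genes at 10 CPM or more on average. In edgeR the log2 fold change was 0.07 for *Kitl* (SE 0.10, 95% interval -0.17 to 0.30, edgeR adjusted p = 0.811) and 0.11 for *Gdnf* (SE 0.12, interval -0.16 to 0.37, edgeR adjusted p = 0.707). Those intervals reach up to 23.1% and 29.3% higher. The value for *Gdnf* was 0.013 without wild type A and 0.20 without wild type C, and that for *Kitl* was -0.011 without wild type B and 0.16 without wild type C.

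Across the 8 mice the log2 CPM of *Kitl* and *Gdnf* had a Pearson r of 0.89 (permutation p = 0.00322, adjusted over 36 pairs of the 9 genes 0.116) and a Spearman rho of 0.95 (permutation p = 0.00114, adjusted 0.0411). Without wild type A and B, the mice farthest from the median of *Kitl*, r was 0.92, and about the genotype means it was 0.88. No other pair passed the adjustment by either measure, the next being *Gdnf* and *Inhbb* (r = 0.79, permutation p = 0.0198, adjusted 0.357). The same mice also differed in germ cells: 8 genes of pachytene spermatocytes summed to 410 CPM in wild type A and 420 CPM in wild type B, and to between 226 and 311 CPM in the other 6 mice. The 10 genes of the leptotene and zygotene list summed to 2212 and 1956 CPM in those mice and to between 1644 and 1791 CPM in the others. The part of germ cell content in the levels of *Kitl* and *Gdnf* was not tested. Their log2 ratio in the same library, on average 4.07 in wild type and 4.03 in the *Tra2b-cPEko* group, differed by -0.04 between genotypes (exact permutation p = 0.6, adjusted 0.8).

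**Figure D5:**
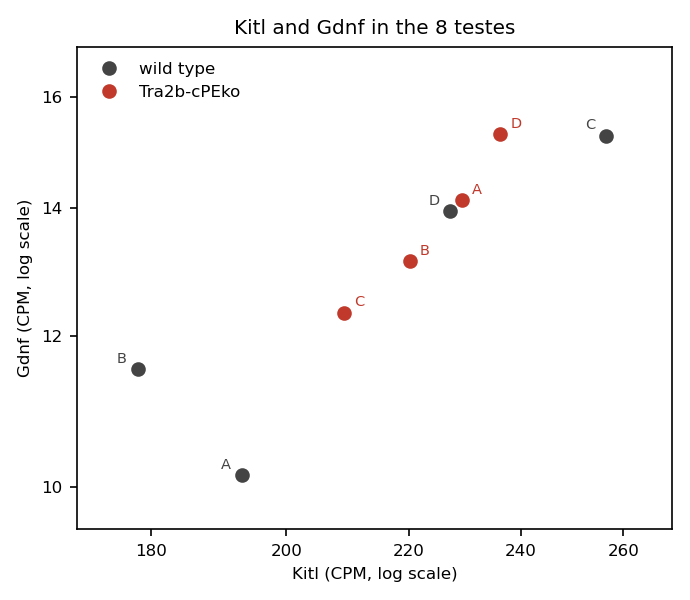
*Kitl* against *Gdnf* in the 8 testes, both in CPM on log2-scaled axes, with grey points for wild type and red for *Tra2b-cPEko* mice lettered A to D. The points lie along a rising line (r = 0.89), with wild type A and B at the lower left and wild type C and *Tra2b-cPEko* D at the upper right.

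The 250 bases before the RefSeq start sites of these genes, which varied together, are shown for reference from the RefSeq promoters of GRCm38.p6. Capitals mark every TATAAA and GGGCGG on either strand, with overlapping copies counted. A GGGCGG on the strand not printed appears here as CCGCCC.
*Kitl*, chr10:100015571-100015820, plus strand: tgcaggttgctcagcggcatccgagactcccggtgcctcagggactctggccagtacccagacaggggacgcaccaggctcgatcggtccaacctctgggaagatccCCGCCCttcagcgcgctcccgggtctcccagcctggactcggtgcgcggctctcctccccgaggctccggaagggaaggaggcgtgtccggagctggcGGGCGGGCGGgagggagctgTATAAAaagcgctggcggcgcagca
*Gdnf*, chr15:7809798-7810047, plus strand: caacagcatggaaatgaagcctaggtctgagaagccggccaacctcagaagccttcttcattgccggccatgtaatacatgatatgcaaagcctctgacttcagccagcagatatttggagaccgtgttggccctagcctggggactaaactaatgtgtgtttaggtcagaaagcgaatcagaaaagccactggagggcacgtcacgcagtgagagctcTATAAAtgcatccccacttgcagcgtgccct
The *Kitl* window held 1 TATAAA and 3 GGGCGG, and the *Gdnf* window held 1 TATAAA and no GGGCGG. A further *Gdnf* start held neither. Among all 32851 windows of this length, 12.4% held TATAAA and 32.7% held GGGCGG. Among the other members, TATAAA was found only before *Inhba*.

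None of the genes listed for these factors was called by edgeR (0.157% over all genes), and 1 was by DESeq2 (2.79%). *Kit*, the receptor of KIT ligand and a gene of differentiating spermatogonia, had 146, 132, 178 and 144 CPM in wild type and 144, 138, 140 and 142 CPM in *Tra2b-cPEko* mice (log2 fold change -0.09, edgeR adjusted p = 0.606). Wild type C was again the highest mouse, and the *Tra2b-cPEko* mice were close together. *Ret*, which signals for GDNF, had 31.3 ± 4.70 CPM in wild type and 31.8 ± 1.78 CPM in *Tra2b-cPEko* testes (SD, n = 4; log2 fold change 0.02, edgeR adjusted p = 0.949). *Ccnd2*, a cyclin of dividing spermatogonia and Sertoli cells, had 177, 188, 224 and 197 CPM in wild type and 163, 181, 145 and 145 CPM in *Tra2b-cPEko* mice. Only *Tra2b-cPEko* B lay above the lowest wild type mouse. Its log2 fold change was -0.31 (SE 0.09, edgeR adjusted p = 0.159), and -0.27 without *Tra2b-cPEko* C. It was called by DESeq2 (adjusted p = 0.0259). It was also the only one of the 9 GDNF list genes under an unadjusted edgeR p of 0.05, as were 15.3% of all genes.

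*Cxcl12*, the chemokine that holds stem cells in their niche (chromosome 6, 117144945 to 117158328, plus strand), varied the least of the 9 between *Tra2b-cPEko* mice. It had 79.0, 78.4, 84.8 and 76.2 CPM in wild type and 79.3, 80.1, 80.1 and 78.6 CPM in *Tra2b-cPEko* mice, where its coefficient of variation was 0.901%. The log2 fold change was -0.00098 with a 95% interval of -0.10 to 0.09 (edgeR adjusted p = 0.995), which bounds the difference to between -6.40% and 6.70%. *Ackr3*, a receptor that takes CXCL12 up, had 39.5 ± 1.09 CPM in wild type and 40.2 ± 1.32 CPM in *Tra2b-cPEko* testes (SD, n = 4; log2 fold change 0.03, edgeR adjusted p = 0.843).

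*Bmp4* (chromosome 14, 46620250 to 46636745, minus strand) had 10.8, 11.2, 11.3 and 10.2 CPM in wild type and 10.8, 10.8, 12.4 and 13.2 CPM in *Tra2b-cPEko* mice. *Tra2b-cPEko* C and D were the highest, and A and B lay among the wild type mice. The log2 fold change was 0.12 (SE 0.08, 95% interval -0.07 to 0.30, edgeR adjusted p = 0.535), and 0.059 without *Tra2b-cPEko* D. *Bmp4* overlaps the opposite-strand lncRNA genes *Gm15217*, *Gm15222* and *Gm63461*. *Bmpr2*, its type II receptor, had 169.8 ± 16.3 and 175.7 ± 7.90 CPM (SD, n = 4; log2 fold change 0.05, edgeR adjusted p = 0.756).

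Over the 8 lists of receptors, partners and targets, 52 of 53 genes were tested and none was called by edgeR (0.157% over all genes). At an unadjusted edgeR p under 0.05, 5 were higher (*Csf1r*, *Il34*, *Fgfr1*, *Fgfr4* and *Lhcgr*) and 4 lower (among them *Ccnd2*, *Fstl3* and *Fgfr3*), against 15.3% of all genes tested, a share close to theirs, and the median log2 fold change over the 52 was 0.02. DESeq2 called 2 higher, *Csf1r* and *Lhcgr*, and 1 lower, *Ccnd2*, where it called 2.79% of all genes. *Lhcgr*, the LH receptor of Leydig cells, had 23.7, 24.5, 27.7 and 20.4 CPM in wild type and 29.4, 37.2, 37.6 and 28.4 CPM in *Tra2b-cPEko* mice, without overlap. Its log2 fold change was 0.46 (SE 0.12), with an adjusted p of 0.131 with edgeR and 0.00851 with DESeq2. Without *Tra2b-cPEko* C it was 0.39 with edgeR, and no DESeq2 fit was made without that mouse. The 8 Leydig markers, *Lhcgr* included, summed to between 624 and 663 CPM in wild type. In *Tra2b-cPEko* testes they summed to 860 CPM in mouse B and to between 614 and 710 CPM in the others. Of the 8, 5 had a log2 fold change above 0. At an unadjusted edgeR p under 0.05, 1 was higher (*Lhcgr*) and 1 lower (15.3% over all genes).

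Markers of the other cells that make or answer these factors were summed beside them. The 7 peritubular myoid genes came to between 1114 and 1288 CPM in wild type and between 1165 and 1374 CPM in *Tra2b-cPEko* testes, with 6 of 7 log2 fold changes above 0. For 8 interstitial stromal genes the sums were 5427 to 6359 and 5608 to 6311 CPM (6 of 8 above 0), and for 8 endothelial genes they were 177 to 207 and 183 to 207 CPM (7 of 8 above 0). The 9 genes of undifferentiated spermatogonia, the cells that answer GDNF, summed to between 288 and 343 CPM and between 301 and 319 CPM, with 6 of 9 above 0. Of these 9, 1 was under an unadjusted edgeR p of 0.05 (15.3% over all genes), and it was lower. Those of differentiating spermatogonia, which answer KIT ligand, summed to between 519 and 569 CPM in wild type and between 464 and 526 CPM in *Tra2b-cPEko* testes, and none of the 6 had a log2 fold change above 0. In that list edgeR called 1 gene (0.157% over all genes). It was *Sohlh1*, a transcription factor gene of these cells (log2 fold change -0.34, edgeR adjusted p = 0.0341). Adipocyte genes summed to at most 16.5 CPM, in *Tra2b-cPEko* C. The part of these cells in the members' levels was not tested.

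Set per kilobase of exon, so that genes can be compared with each other, wild type levels ran from *Inha* (80.5 ± 6.11 CPM per kilobase) and *Inhbb* (53.9 ± 7.93) through *Kitl* (25.6 ± 4.19) and *Cxcl12* (9.54 ± 0.439) to *Csf1* (4.59 ± 0.322), all SD with n = 4. These 5 kept this order in *Tra2b-cPEko* testes and no neighbours among them overlapped between mice in either genotype. Below them in wild type came *Gdnf* (3.46), *Fgf2* (3.18), *Inhba* (2.60) and *Bmp4* (2.08 CPM per kilobase). Neighbours from *Csf1* down to *Inhba* overlapped in wild type, and *Inhba* did not overlap *Bmp4*. In *Tra2b-cPEko* testes *Csf1* (5.54) lay clear of *Gdnf* (3.73), and *Inhba* (2.08) was below *Bmp4* (2.25 CPM per kilobase) with overlapping mice. Exon lengths are the union of the exons of all transcripts of a gene in GENCODE, which may differ from the annotation used for counting. That union was 6678 bases for *Inha*, nearly its whole span. Where it is longer than the transcripts present, the level per kilobase is too low, by an amount that may differ between genes.

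For each gene the most similar of 12279 genes at 5 CPM or more on average, by Pearson r of log2 CPM over the 8 mice, is given as a description. *Kitl* was most like *Rad21*, a cohesin subunit gene (r = 0.99), *Gdnf* most like *Sh2b2* (0.97), *Inha* most like *Rnh1* (0.96), *Inhbb* most like *Snx18* (0.98) and *Inhba* most like *Pcdh18* (0.96). *Fgf2* was most like *Stx7* (0.98), *Bmp4* most like *Papln* (0.95), *Cxcl12* most like *Lbh* (0.98) and *Csf1* most like *Arhgef19* (0.98). With 8 mice and so many genes searched, values of this size are found for every member, and the genes share library and depth.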

How the data were processed

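Per the labels and the paper's methods, total RNA of whole P12 testes from independent mice was made into stranded mRNA libraries and sequenced as paired 100-base reads. The authors deposited raw read counts per gene, 1 table per mouse, and the submitters' processing notes name HISAT2 2.2.1, SAMtools 1.7.1, HTSeq 2.0.2 and GRCm39. The methods name Salmon, which does not write the 5 summary lines that end each table. These lines were left out, which kept 66.4% to 69.0% of each table's total.

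In R 4.3.3, counts were tested by edgeR 4.0.16, after filterByExpr with a minimum count of 10 and a minimum total of 15, by robust glmQLFit with TMM normalization, genotype as the only term, Benjamini-Hochberg adjustment over all genes tested. The exact tests were two-sided, over all 70 arrangements of the 8 mice. Alternatives were DESeq2 1.42.0 (the paper's test), limma-voom (limma 3.58.1), other scaling and filters, a replicate block and fits without each mouse. The methods were tested on simulated data. Similarity used log2 CPM with no prior count, and ratios added 0.5 to each count. The mean of the Sertoli list and the correlations of same-lettered mice used log2 CPM with a prior count of 2.

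The 9 members and all lists were chosen with earlier results of these data known. Named besides the members are list genes with an unadjusted edgeR p under 0.05, the receptor or partner of each list with the highest mean CPM, and for each member its most similar gene, members left out. *Sohlh1*, *Fgfr2*, *Clu*, *Crisp1*, *Spink8*, *Cst8* and *Lcn8* were named after their values were seen. Results for 2 genes of these lists are not reported here. Positions and overlaps are from GENCODE on GRCm39 and promoters from RefSeq. BLAST+ 2.17.0 found no copy of a member at 95% identity over 50% of a transcript other than overlapping genes. Scripts ran in Python 3.11.15 with scipy 1.17.1 and matplotlib 3.10.9.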

Additional observations from a re-analysis of the deposited data

Results flagged for a closer look

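With 4 mice per genotype, a mouse was flagged where its gap to the nearest other mouse, as a share of the range of its group, was above Dixon's critical value for 4 samples. Over 26 groups looked at, 3 mice were flagged, where chance would flag about 1.3. *Inhba* was 24.5 CPM in wild type mouse C, against 16.4 to 16.8 CPM in the other wild type mice. *Inhba* was 11.6 CPM in *Tra2b-cPEko* mouse C, against 15.5 to 16.1 CPM in the other *Tra2b-cPEko* mice. *Csf1* was 24.1 CPM in wild type mouse A, against 27.9 to 28.0 CPM in the other wild type mice, and without it the log2 fold change of *Csf1* was 0.22 (edgeR adjusted p = 0.272).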

How the results depend on the processing

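The number of genes called over the whole table moved from 30 to 507 with DESeq2, 58 with upper-quartile factors, 123 with no low-count filter, 14 with a mean count of at least 50, 11 with limma-voom, 12 with no robust estimation, 67 with the replicate block, 156 at a threshold of 0.1 and 3 at 0.01. Without 1 mouse it ranged from 3 to 84: 9 without wild type A or B or *Tra2b-cPEko* C, 10 without *Tra2b-cPEko* A, 3 without *Tra2b-cPEko* D, 84 without wild type C and 76 without *Tra2b-cPEko* B. The number of members called was 1 with DESeq2 (*Csf1*, log2 fold change 0.27, adjusted p = 0.0223) and 0 in every other fit, the replicate block included, and the adjusted p of *Csf1* over 17 alternatives ranged from 0.0223 to 0.307. *Csf1*, *Fgf2*, *Bmp4*, *Gdnf* and *Inhba* kept their sign in all 17 alternatives, though fits without 1 mouse ranged from 0.013 to 0.20 for *Gdnf*, 0.059 to 0.16 for *Bmp4* and -0.38 to -0.16 for *Inhba*. Signs turned for values near 0. *Inhbb* was 0.013 and *Cxcl12* 0.017 with upper-quartile factors, and *Cxcl12* was 0.0018 with a mean count of at least 50 and 0.00067 with limma-voom. Fits without 1 mouse gave -0.011 to 0.16 for *Kitl* (lowest without wild type B), -0.094 to 0.022 for *Inha* (above 0 without wild type B at 0.022 and *Tra2b-cPEko* D at 0.0021), -0.071 to 0.087 for *Inhbb* (above 0 without wild type C, wild type D or *Tra2b-cPEko* C) and -0.025 to 0.029 for *Cxcl12* (above 0 without wild type C or *Tra2b-cPEko* D). They gave -0.062 to 0.12 for the log2 ratio difference of *Inhbb* to *Inha* and -0.086 to 0.014 for that of *Kitl* to *Gdnf*, -0.37 to -0.13 for that of *Inhba* to *Inha* and -0.45 to -0.19 for that of *Inhba* to *Inhbb*. The cause of these moves was not tested. *Gdnf*, *Inhba* and *Bmp4* rest on the fewest reads of the members. Replicate letters were not shown to pair mice: same-lettered mice had correlations of -0.14 to 0.12 in their deviations, and no wild type mouse other than D correlated best with its own letter.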
